A study of Rattus norvegicus with 46 samples.

Results

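The set described here holds 39 rat genes that mark the cells of small blood vessels: endothelial identity genes, receptors and ligands of vessel growth, lymphatic endothelial genes, endothelial transcription factors, leukocyte adhesion molecules of activated endothelium, and markers of pericytes, the contractile cells wrapped around capillaries. Members were found as the array features annotated with exactly these gene symbols. Of the 39, 34 had a feature on the array, 1 each, among 23188 features tested. Robo4, Egfl7, Mmrn2, Mmrn1 and Ackr1 had none and were not analysed here.

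The study profiled abdominal skin of Sprague-Dawley rats on 46 single-colour Clariom S expression arrays. RTA-408, a synthetic triterpenoid that activates the antioxidant transcription factor NRF2, was compared with its DMSO vehicle in skin irradiated with 6 MeV electrons, at 40 Gy in 4 fractions of 10 Gy over 8 days. Punch biopsies of 5 mm came from 9 rats, of which 6 gave an array before treatment. The others were from 5 later days, counted so that the first of these, day -4, fell inside the radiation course. Each array measured the RNA of 1 biopsy.

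The baseline group held 6 untreated biopsies of day -10, each from a rat that later entered 1 of the arms. Irradiated skin with RTA-408 in DMSO and irradiated skin with DMSO alone each had 3 arrays on days -4, 1, 3, 7 and 14, from the same 3 rats throughout. Skin that received DMSO without radiation had 2 arrays on each of these days, from 3 rats in all. No group received RTA-408 without radiation, and every group after baseline received DMSO. Every such group held rats with an earlier array here, but not every rat of an arm had a baseline array. The baseline rats overlap with the arms, so groups and days were not independent animals. The groups of 2 to 6 arrays limit the precision.

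Endothelial cells are held together by junction proteins such as VE-cadherin and PECAM-1, and they receive growth and survival signals through VEGF receptors and through TIE2, whose ligands are the angiopoietins. When inflammatory cytokines activate them through NF-kB, they display ICAM-1, VCAM-1 and the selectins, which capture circulating leukocytes. Ionizing radiation of skin is known to injure this microvasculature and to raise endothelial adhesion molecules.

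All values are log2 signals as deposited, and every change is a difference between group means on that scale with its standard error (SE) from 1 linear model (limma) over all arrays. A gene is called where its p, adjusted by the Benjamini-Hochberg method over all 23188 features of that comparison and day, was below 0.05. Array medians lay between 6.84 and 6.95, and the median of each array's negative control probes between 5.78 and 6.52. Signals of hybridization and spike-in controls divided the arrays into 3 sets, here I, II and III, of 18, 10 and 18 arrays. All baseline arrays and the unirradiated arrays of days -4 and 1 were in set I. The unirradiated arrays of days 3, 7 and 14 were in set III, and on each day 1 array of either irradiated arm belonged to set II. The labels do not say what the sets are. The label checks went the labelled way on the days that passed: the NRF2 target Nqo1 was higher with RTA-408 by 3.88 on day -4 (adjusted p = 0.00255) and by 3.77 on day 1 (adjusted p = 0.00182) but not called later, and the p53 target Mdm2 was higher in irradiated than in unirradiated vehicle skin on all 5 days, by 1.15 to 2.47. The p53 target Cdkn1a was called in that comparison on days 1 and 7, by 2.62 and 2.66. The mean signal of skeletal muscle genes was lowest, at 6.72, 7.215 and 9.07, in baseline replicate 2, RTA-408 day -4 replicate 1 and unirradiated day 1 replicate 1. It was 12.84, 13.39 and 14.02 in irradiated vehicle day -4 replicate 2, irradiated vehicle day 14 replicate 3 and unirradiated day 14 replicate 1. All other arrays lay between 15.44 and 18.95. Irradiated vehicle day 14 replicate 3 also stood apart by its macrophage genes, whose mean signal was 15.44 against 10.88 and 12.08 in the other 2 arrays of its group.

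Of the 34 measured genes, 20 were above the negative control median of their array on all 46 arrays, 13 on some, and Prox1, the master transcription factor of lymphatic endothelium, on none. The dimmest of the 13 were Nos3 (endothelial nitric oxide synthase) and Selp (P-selectin), each above on 5 arrays, Flt4 on 6, Esm1 on 7 and Apln on 10. In these biopsies of whole skin, fewer vessel cells and less RNA per vessel cell cannot be told apart.

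The 2 adhesion genes that carry binding-site-like letters for NF-kB just upstream of their start are shown because Icam1 gave the most persistent change of the set. In the main fit Vcam1, its functional neighbour, was not called in any comparison with a control. The sequences are RefSeq's for the rat assembly GRCr8, cut to the bases before the start site. Icam1 has 230 bases at chr8:27829615-27829844, on the plus strand, and Vcam1 has 140 bases at chr2:206742784-206742923, on the minus strand. The capitals mark matches to GGAANNTCC in Icam1 and to GGGANTTCC in Vcam1, both searched on both strands.
Icam1: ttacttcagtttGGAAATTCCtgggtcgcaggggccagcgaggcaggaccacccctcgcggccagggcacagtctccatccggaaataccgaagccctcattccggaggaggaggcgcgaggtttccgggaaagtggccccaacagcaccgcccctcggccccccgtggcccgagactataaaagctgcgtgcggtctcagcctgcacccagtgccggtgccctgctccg
Vcam1: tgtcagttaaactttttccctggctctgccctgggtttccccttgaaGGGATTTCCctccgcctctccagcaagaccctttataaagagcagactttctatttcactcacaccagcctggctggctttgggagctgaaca
The match in Icam1 lies 218 bases before the start and that in Vcam1 93 bases before it. Letters fitting GGAANNTCC occur in 4.09% and letters fitting GGGANTTCC in 1.64% of 33469 promoter windows of 300 bases. Promoter entries matched 22 of the member genes. Among them Icam1 was the 1 gene holding the first pattern, and Tie1 and Vcam1 were the 2 holding the second. A match describes the letters and is not evidence of a bound site.

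Icam1, the endothelial ligand of leukocyte integrins, rose in both irradiated arms on every day against baseline. Its 6 baseline signals were 6.51, 7.01, 6.81, 7.33, 6.66 and 7.35. In irradiated vehicle skin they were 8.41, 8.42 and 8.34 on day -4, and 8.58, 8.33 and 8.72 on day 1. They were 8.28, 9.02 and 9.21 on day 3, 9.10, 8.96 and 9.70 on day 7, and 7.50, 8.73 and 10.06 on day 14. Every irradiated vehicle array lay above every baseline array. The spread was narrow on days -4 and 1 and wide on day 14, where replicate 1 lay just above the highest baseline value.

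With RTA-408, Icam1 was 8.62, 7.60 and 8.45 on day -4, and 8.05, 8.08 and 8.12 on day 1. It was 9.14, 9.37 and 8.88 on day 3, 9.41, 8.81 and 9.60 on day 7, and 8.11, 7.87 and 8.10 on day 14. These arrays also stood above all baseline arrays without overlap. The 2 unirradiated arrays of each day ranged between 6.80 and 7.67 over the 5 days and mingled with baseline, from which Icam1 was not called on any day.

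Against baseline, Icam1 in irradiated vehicle skin was higher by 1.44 (SE 0.32, adjusted p = 0.00252) on day -4, by 1.60 (adjusted p = 0.000896) on day 1, by 1.89 (adjusted p = 0.00012) on day 3, by 2.31 (adjusted p = 3.35e-06) on day 7 and by 1.82 (adjusted p = 8.69e-05) on day 14. In RTA-408 skin the differences were 1.28 (adjusted p = 0.0123), 1.14 (adjusted p = 0.0147), 2.18 (adjusted p = 1.42e-05), 2.33 (adjusted p = 2.34e-06) and 1.08 (adjusted p = 0.0231) on the same days. Both arms were compared with the same 6 baseline arrays, so these are not independent results. Leaving out any 1 of the 9 arrays kept Icam1 called in vehicle skin on all 5 days and in RTA-408 skin on days 3 and 7, although the vehicle difference of day 14 was 1.17 without replicate 3 and 2.45 without replicate 1. In RTA-408 skin, 2 of 9 left-out arrays ended the call on day -4, 3 on day 1 and 4 on day 14, the highest adjusted p being 0.123 without replicate 3 on day -4, 0.0597 without replicate 3 on day 1 and 0.0952 without replicate 1 on day 14.

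The direct comparison of irradiated with unirradiated vehicle skin gave Icam1 higher by 1.77 (SE 0.41, adjusted p = 0.0171) on day 3, by 1.69 (adjusted p = 0.0138) on day 7 and by 1.65 (adjusted p = 0.0114) on day 14. On days -4 and 1 the Icam1 difference was 1.25 and 1.24, with no overlap of arrays, but did not pass (adjusted p = 0.054 and 0.0928). With 2 control arrays a day, these calls were lost without 3, 3 and 2 of the 5 arrays, the highest adjusted p being 0.562 without unirradiated replicate 2 on day 3, 0.161 without unirradiated replicate 2 on day 7 and 0.187 without unirradiated replicate 1 on day 14. Fitted on the arrays of 1 day alone, Icam1 was called on day 7 (adjusted p = 0.0205) but not on day 3 (adjusted p = 0.117) or day 14 (adjusted p = 0.755). The day 14 difference ran from 1.00 without irradiated replicate 3 to 2.28 without irradiated replicate 1. With the spike-in set as a block, Icam1 kept its calls in this comparison, by 1.86 to 1.98. Against baseline, where the set cannot be separated fully from the days, that block ended the Icam1 call in vehicle skin on day 3 (1.45, adjusted p = 0.0912) and day 14 (1.38, adjusted p = 0.0569), and in RTA-408 skin on day 14 (0.64, adjusted p = 0.508). Between arrays of 1 set, the Icam1 call was lost on day 7 against unirradiated skin (1.84, adjusted p = 0.0507) and on day -4 in RTA-408 skin against baseline (1.17, adjusted p = 0.0614).

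**Figure D1:**
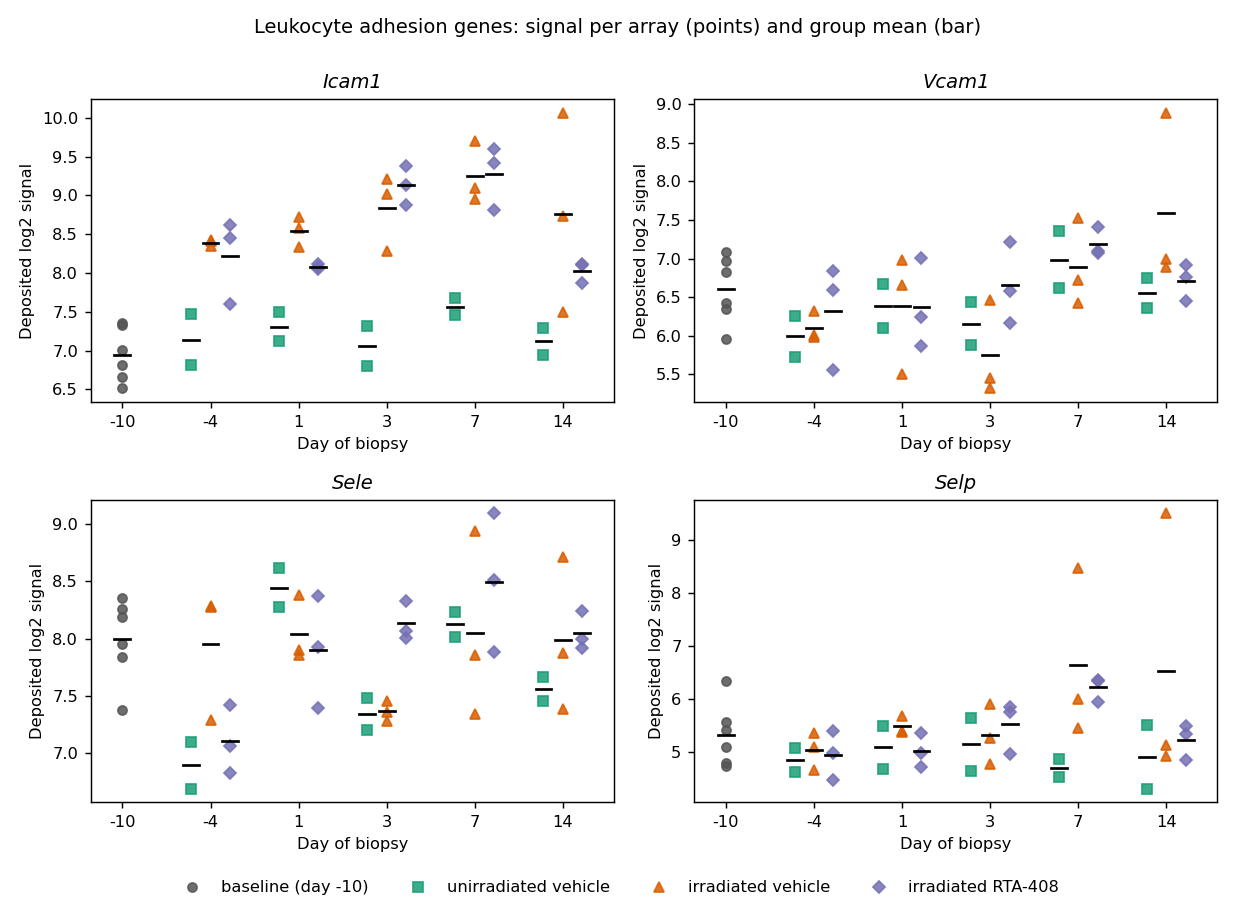
Log2 signal of the leukocyte adhesion genes Icam1, Vcam1, Sele and Selp on each array (points) by labelled biopsy day, with bars at the group means, for baseline, unirradiated vehicle, irradiated vehicle and irradiated RTA-408 skin. Every irradiated array lies above the baseline range of 6.51 to 7.35 for Icam1, while Vcam1 and Selp have single high arrays in irradiated vehicle skin on day 14.

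The other adhesion genes did not follow Icam1. Vcam1, the ligand of the integrin VLA-4, had baseline signals of 5.96 to 7.08 and was 6.89, 7.00 and 8.89 in irradiated vehicle skin on day 14, a difference of 0.99 from baseline that did not pass (adjusted p = 0.0744). Only the single array of replicate 3 lay far from the rest. Under other settings Vcam1 was called higher in vehicle skin on day 14. These were all unirradiated days as the control, chosen after seeing the data, and, against baseline, the replicate number as a block. Selp, which tethers rolling leukocytes, showed the same replicate high, at 5.46, 5.99 and 8.46 on day 7 and 5.13, 4.93 and 9.49 on day 14, against 4.73 to 6.33 at baseline. Its differences of 1.32 and 1.20 were not called (adjusted p = 0.161 and 0.202), and most of its values are at negative control level.

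E-selectin (Sele), made by cytokine-activated endothelium, was 7.37 to 8.36 at baseline and differed from it in no arm with a call. In the unirradiated arrays of day -4 it was 6.69 and 7.10, and in RTA-408 skin of that day 7.06, 6.83 and 7.42, against 8.27, 8.29 and 7.29 with vehicle. On day 3 the order of the irradiated arms was the other way round, at 8.00, 8.33 and 8.07 with RTA-408 and 7.36, 7.45 and 7.28 with vehicle, and the groups did not overlap. Neither Sele difference, of -0.85 and 0.77, was called after adjustment.

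NF-kB targets and cytokines were called mainly on the later days. Of 10 such genes in a related list, 1, 1, 2, 7 and 6 were higher than baseline in irradiated vehicle skin on days -4, 1, 3, 7 and 14, and 1, 1, 2, 7 and 0 in RTA-408 skin, where Icam1 was called on all 5 days. Over all features 6.46%, 5.08%, 4.57%, 7.92% and 9.47% were called higher with vehicle on these days and 4.22%, 6.17%, 5.33%, 9.12% and 5.53% with RTA-408, so that 1 of 10 is close to the share of all features. The chemokine Ccl2 was higher by 3.45 on day 7 and 3.51 on day 14 with vehicle and by 4.00 on day 7 with RTA-408, and interleukin-1 beta (Il1b) by 3.27, 3.20 and 2.95 in the same groups. Of 12 macrophage markers, 0, 6, 0, 12 and 12 were higher with vehicle and 3, 8, 7, 12 and 10 with RTA-408. Their mean signal was 8.28 to 9.53 at baseline, 11.29 to 12.69 on day 7 with vehicle and 11.96 to 12.64 with RTA-408, and no macrophage marker was at negative control level on every array. Their part in the Icam1 result, and in those below, was not tested.

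On day -4, during the radiation course, 10 of the 34 genes were higher in irradiated than in unirradiated vehicle skin and none lower. Among all features 3.23% were called higher and 4.19% lower. The 10 were Pecam1, Cdh5, Emcn and Icam2 among the identity genes, Flt1, Tek and Eng among the receptors, the ligand Angpt2, the transcription factor Erg and the pericyte gene Mcam, and the 2 groups overlapped in none of them. The median difference was 1.05 over the 34 genes, of which 33 were positive, and 0.07 over all features.

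The values on both sides matter for reading these differences. Cdh5, which encodes VE-cadherin, was 12.51, 12.62 and 13.25 in irradiated and 10.39 and 11.46 in unirradiated skin, with 11.67 to 13.53 at baseline. Pecam1, the platelet endothelial adhesion molecule of endothelial junctions, was 8.95, 9.44 and 9.45 against 6.90 and 7.98, with 8.28 to 10.22 at baseline. In both genes the irradiated arrays lay within the baseline range and both unirradiated arrays below it.

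Angpt2, the angiopoietin that antagonizes TIE2 and is released by activated endothelium, was 8.70, 8.48 and 9.32 against 7.15 and 7.00, with 7.19 to 8.71 at baseline. Tek, the TIE2 receptor itself, was 10.44, 9.67 and 10.44 against 8.11 and 8.91, with 9.57 to 10.96 at baseline. Emcn (endomucin, an endothelial sialoglycoprotein) was 11.02, 10.99 and 10.70 against 9.05 and 9.37, with 9.16 to 10.77 at baseline. For Angpt2 only the irradiated array at 9.32 lay above the baseline range, and both unirradiated arrays lay below it. For Emcn the irradiated arrays at 11.02 and 10.99 lay above the range. Its unirradiated array at 9.05 lay below the range and that at 9.37 in its lower part. For Tek only the unirradiated side departed from baseline.

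The sizes of these day -4 differences were 1.87 for Cdh5 (SE 0.44, adjusted p = 0.00831), 1.84 for Pecam1 (SE 0.41, adjusted p = 0.00623), 1.76 for Angpt2 (SE 0.39, adjusted p = 0.00616), 1.69 for Emcn (adjusted p = 0.0164) and 1.67 for Tek (adjusted p = 0.0156). Mcam, an adhesion molecule of pericytes and endothelium, was 11.17, 11.94 and 11.28 against 9.74 and 10.17, higher by 1.50 (adjusted p = 0.0329). Eng, the TGF-beta co-receptor endoglin, differed by 1.50 (adjusted p = 0.0426), Erg, an ETS factor that maintains endothelial identity, by 1.48 (adjusted p = 0.00368), Flt1, a VEGF receptor, by 1.20 (adjusted p = 0.013) and Icam2, a constitutive endothelial adhesion molecule, by 1.10 (adjusted p = 0.0278).

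The control for these calls was the 2 unirradiated arrays of day -4. Emcn, Angpt2 and Erg were also called higher than baseline in irradiated vehicle skin on that day. Without irradiated replicate 1, the members called against unirradiated skin numbered 4. Compared with baseline, unirradiated skin on day -4 had negative differences in 31 of the 34 genes, with a median of -0.73 and 17 lower at an unadjusted p under 0.05 but none called by limma after adjustment; 0.0173% of all features were called in that comparison. The smallest p belonged to Pecam1 (-1.59), Aplnr (-1.66) and Tek (-1.58), with adjusted p = 0.174, 0.184 and 0.209. On days 1, 3, 7 and 14 the same comparison called 0 of the 34 genes as well, beside 0.315%, 0%, 2.71% and 0% of all features, and 0 was also the count with the rat as a random block. Other settings did call members. Array weights called Pecam1, Cdh5, Vwf, Tek, Eng and Aplnr lower on day -4 (by -1.25 to -1.59, adjusted p = 0.00956 to 0.0339), leaving out baseline replicate 2 called Pecam1, Tek and Aplnr lower (adjusted p = 0.0439, 0.0456 and 0.0373), and the replicate block called Cldn5 and Angpt2 higher on day 7.

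Every one of the 10 calls of day -4 was lost in at least 1 fit that left out an array. Without unirradiated replicate 1 the adjusted p was 0.199 for Pecam1, 0.226 for Cdh5, 0.173 for Emcn, 0.258 for Tek, 0.388 for Eng, 0.114 for Erg and 0.269 for Mcam. Without unirradiated replicate 2 it was 0.394 for Icam2, 0.127 for Flt1 and 0.09 for Angpt2. When the mean of the unirradiated arrays of all 5 days stood as the control, an alternative chosen after seeing the data, the genes called on day -4 were Flt1, Erg and Icam1. With the spike-in set as a block they were Pecam1, Cdh5, Emcn, Flt1, Tek, Angpt2, Erg and Icam1. Within set I alone they were Pecam1, Eng, Angpt2 and Erg.

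Other cell types also differed between those arrays. The mean signal of the fibroblast markers was 14.91 in both unirradiated arrays of day -4, under the 14.96 to 16.25 of baseline, and 15.55 to 16.16 in irradiated vehicle skin. The macrophage mean was 7.78 and 8.29 in the unirradiated arrays and 9.03 to 9.83 in the irradiated ones. The keratinocyte mean was 15.255 and 15.87 against 16.43 to 16.92, and the adipocyte mean 11.86 and 12.63 against 12.83 to 13.60. Means of mast cell and Schwann cell markers did not overlap either. Those of neutrophil, T and NK cell, skeletal muscle and erythrocyte markers did. The part of these shifts in the 10 calls was not tested.

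**Figure D2:**
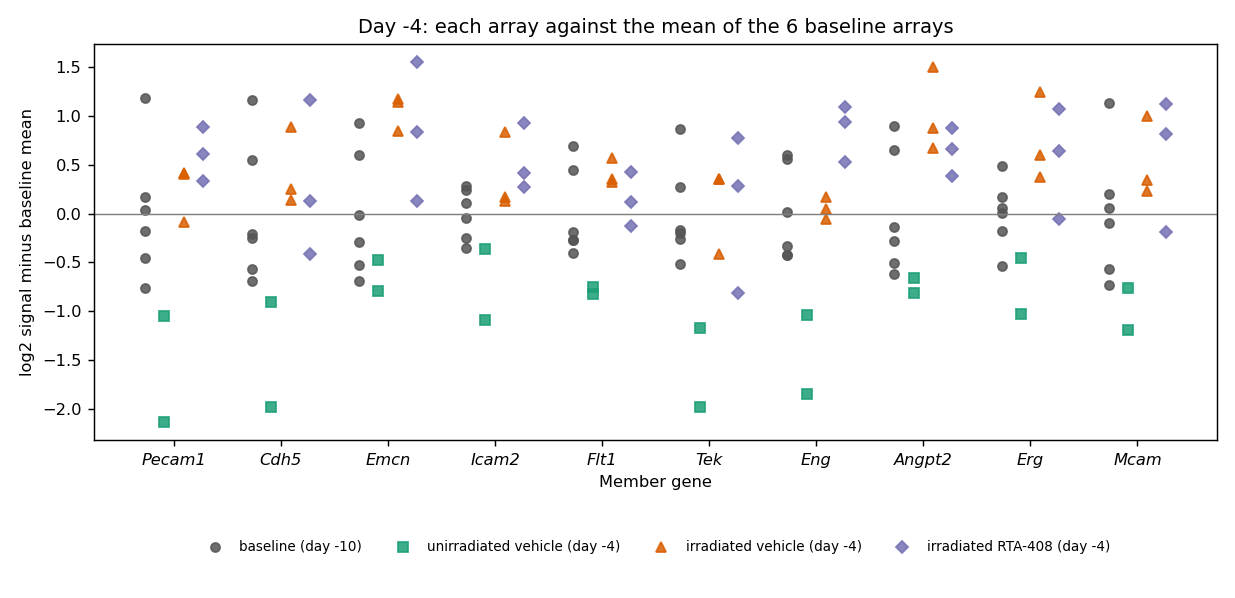
Log2 signal minus the baseline mean of the 10 genes called on day -4 between irradiated and unirradiated vehicle skin, with 1 point per array of the baseline, unirradiated vehicle, irradiated vehicle and irradiated RTA-408 groups. The unirradiated arrays lie below 0, the baseline mean, for all 10 genes, and the irradiated vehicle arrays lie above them without overlap.

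Compared day by day, few other genes of the set after day -4 separated irradiated from unirradiated vehicle skin. The counts were 0 on day 1 (1.2% of all features were higher and 0.901% lower), 1 on day 3 (0.656% and 0.647%), 1 on day 7 (2.69% and 1.33%) and 4 on day 14 (4.43% and 2.53%), all of them higher. These counts depended on the control. With the mean of all unirradiated days, chosen after seeing the data, they were 12, 2, 6 and 7 higher and 0, 0, 1 and 0 lower. Day 1 and not day -4 then had the longest list, but the share of all features called with that control was not computed. The 12 of day 1 were Pecam1, Cdh5, Emcn, Esam, Plvap, Vwf, Flt1, Eng, Acvrl1, Erg, Icam1 and Pdgfrb. On days 3 and 7 the gene was Icam1. On day 1 the smallest p among the members belonged to Icam1, to Angpt1, the TIE2-activating angiopoietin (1.28, SE 0.51, adjusted p = 0.173), and to Eng (0.90, adjusted p = 0.333).

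On day 14 Kdr, VEGF receptor 2, was 8.69, 9.43 and 10.08 in irradiated against 8.10 and 8.12 in unirradiated skin, higher by 1.29 (SE 0.34, adjusted p = 0.0166). Icam2 was 8.68, 9.01 and 9.36 against 7.67 and 8.07, higher by 1.15 (SE 0.32, adjusted p = 0.0232). Flt4, the VEGF-C receptor of lymphatic endothelium, was 5.90, 5.13 and 6.42 against 4.55 and 4.82, higher by 1.13 (SE 0.35, adjusted p = 0.0423). The groups did not overlap in these genes, although for Flt4 the unirradiated values are at negative control level, so the size of that difference is not well measured. Without irradiated replicate 3 of day 14 Kdr was no longer called (adjusted p = 0.179), and without unirradiated replicate 1 neither Icam2 (adjusted p = 0.305) nor Flt4 (adjusted p = 0.337) was. Fitted on the 5 arrays of day 14 alone, none of the 4 calls of that day was kept (adjusted p = 0.755 for Kdr, Icam2, Flt4 and Icam1). All 12 macrophage markers were higher in irradiated skin on that day, against 1, 2, 0 and 6 on the earlier days.

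A test of whether the radiation difference changed over the 5 days called 501 features and 0 members, the smallest adjusted p being 0.0557 for Tek. That the day -4 list is longer than the later ones was therefore not shown to be a change over time for any single gene.

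**Figure D3:**
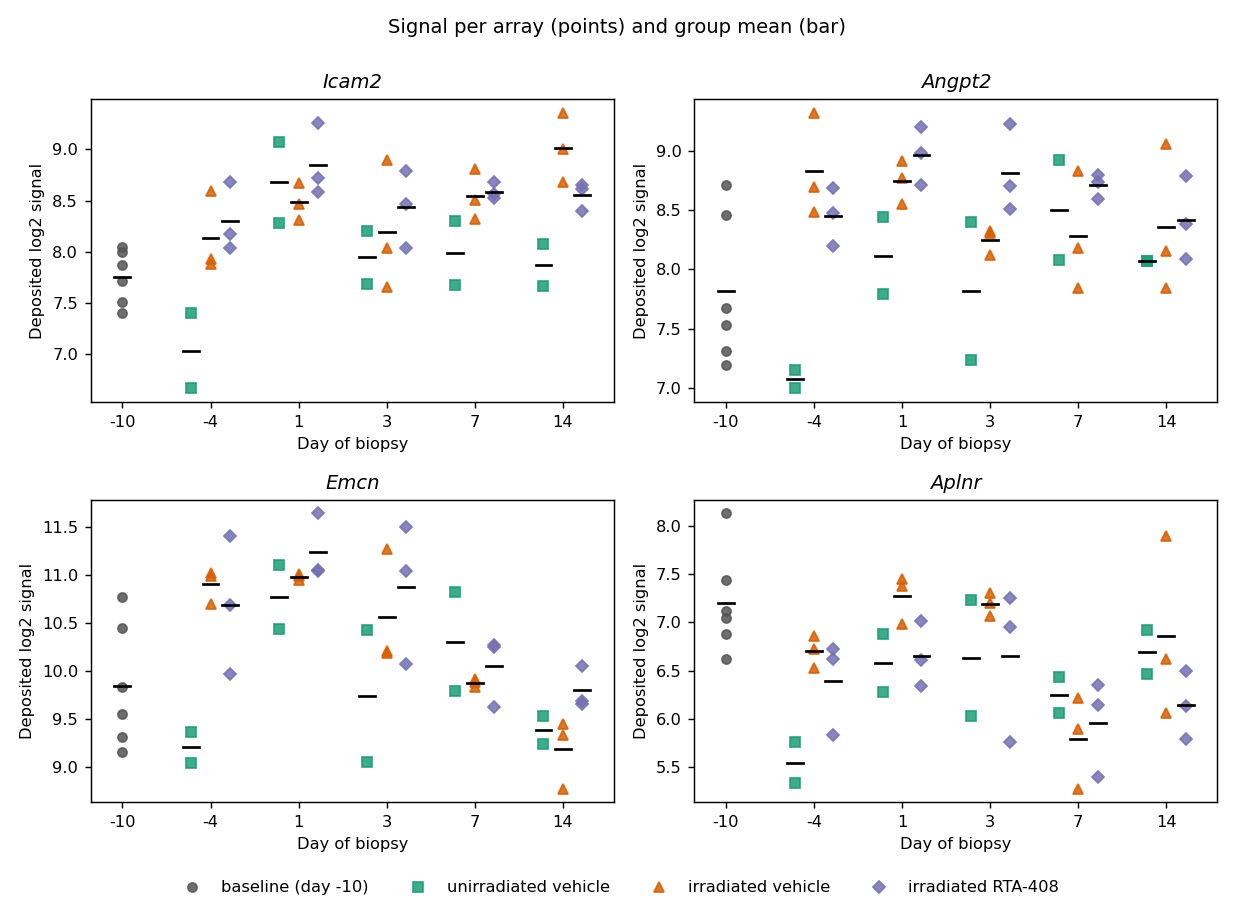
Log2 signal of Icam2, Angpt2, Emcn and Aplnr on each array (points) by biopsy day, with bars at the group means, in baseline, unirradiated vehicle, irradiated vehicle and irradiated RTA-408 skin. Emcn in irradiated vehicle skin stands at 10.70 to 11.02 on day -4 and at 8.78 to 9.45 on day 14, while Icam2 is highest in that arm on day 14, at 8.68 to 9.36.

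Set against the 6 baseline arrays, irradiated vehicle skin had 20 calls over the 5 days, 18 higher and 2 lower, and irradiated RTA-408 skin had 27, 24 higher and 3 lower. On days -4, 1, 3, 7 and 14 the members called higher in vehicle skin numbered 5, 4, 2, 4 and 3, where 6.46%, 5.08%, 4.57%, 7.92% and 9.47% of all features were called higher. Those called lower numbered 0, 0, 0, 1 and 1, where 4.26%, 4.65%, 3.97%, 6.06% and 5.96% of all features were called lower. In RTA-408 skin 1, 10, 3, 8 and 2 members were called higher, against 4.22%, 6.17%, 5.33%, 9.12% and 5.53% of all features. The members called lower there were 0, 0, 0, 2 and 1, against 1.57%, 4.79%, 4.36%, 6.67% and 4.71%. The most members were called higher in the RTA-408 arm on day 1 (10 of 34) and day 7 (8 of 34), and on no other day of either arm were more than 5. With the spike-in set as a block 5 calls were left in vehicle skin (Angpt2, Erg and, on days -4, 1 and 7, Icam1) and 13 in RTA-408 skin (the same 10 genes on day 1 and Icam1 on days -4, 3 and 7), where Notch3 was newly called lower on day 14. Both arms share the baseline arrays, and 4 of the 6 irradiated rats gave one of them.

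Among the identity genes, Emcn and Icam2 moved most often. Emcn in vehicle skin was 11.02, 10.99 and 10.70 on day -4 and 11.00, 10.95 and 10.98 on day 1, then 11.27, 10.19 and 10.21 on day 3, 9.88, 9.92 and 9.84 on day 7, and 9.45, 9.33 and 8.78 on day 14. The 6 baseline values were 9.16, 9.32, 9.55, 10.77, 10.45 and 9.84. On the first 2 days all but 1 array lay above the baseline range, and on day 14 the arrays lay in its lower part or, in replicate 3, below it. Emcn was called higher on day -4 by 1.05 (SE 0.34, adjusted p = 0.0426) and on day 1 by 1.13 (adjusted p = 0.0301), and in RTA-408 skin, at 11.64, 11.05 and 11.04, on day 1 by 1.39 (adjusted p = 0.00583). The vehicle calls of Emcn were lost in 7 and 6 of 9 fits without 1 array, with adjusted p up to 0.162 and 0.0998 without vehicle replicate 1 of the day. The RTA-408 call was lost without replicate 1 (adjusted p = 0.0681).

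Icam2 was raised late in the vehicle arm. It was 8.51, 8.32 and 8.80 on day 7 and 8.68, 9.01 and 9.36 on day 14, against baseline values of 7.40, 7.51, 8.04, 7.87, 8.00 and 7.71, higher by 0.79 (adjusted p = 0.0268) and 1.26 (SE 0.25, adjusted p = 0.000363). The day 14 call of Icam2 held without each array in turn, with an adjusted p of at most 0.0126, while that of day 7 was lost in 4 of 9 fits (adjusted p up to 0.178 without vehicle replicate 3). Both calls ended with the spike-in set as a block. With RTA-408, Icam2 was 8.72, 8.58 and 9.26 on day 1, 8.52, 8.68 and 8.57 on day 7 and 8.65, 8.40 and 8.61 on day 14, higher by 1.10 (adjusted p = 0.00262), 0.83 (adjusted p = 0.0163) and 0.80 (adjusted p = 0.0312). No array of these groups overlapped baseline. The first of these calls held in all 9 fits without 1 array, and the others reached adjusted p = 0.0679 without RTA-408 replicate 2 of day 7 and 0.125 without replicate 1 of day 14. With the spike-in set as a block only the first was kept.

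Of the remaining identity genes, Cldn5, the tight junction claudin of endothelium, rose in vehicle skin on day 3, at 8.996, 9.12 and 9.29 against 7.92 to 8.73, by 0.78 (SE 0.23, adjusted p = 0.0267). Its call was lost in 6 of 9 fits without 1 array, up to adjusted p = 0.135 without vehicle replicate 3. Pecam1 in RTA-408 skin on day 1 was 10.30, 10.01 and 10.14, which overlapped the highest baseline array at 10.22, and was higher by 1.12 (SE 0.32, adjusted p = 0.0172). Without RTA-408 replicate 1 Pecam1 was not called (adjusted p = 0.096). Esam, a junction molecule shared with platelets, was 10.50, 10.42 and 10.14 in RTA-408 skin on day 7 against 8.79 to 10.03, higher by 0.98 (SE 0.33, adjusted p = 0.0407), and lost its call in 6 of 9 such fits, up to adjusted p = 0.15 without RTA-408 replicate 1. Cdh5, Plvap (a protein of fenestrated capillaries), Vwf (von Willebrand factor) and Nos3 were called against baseline in neither arm.

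Eng and Acvrl1 were higher than baseline in RTA-408 skin. Eng was 12.61, 12.69 and 13.00 on day 1 and 12.82, 13.14 and 13.30 on day 7, against baseline values of 11.21, 11.11, 11.56, 12.10, 12.14 and 11.12, higher by 1.23 (SE 0.36, adjusted p = 0.0211) and 1.54 (adjusted p = 0.00223). Acvrl1, the endothelial BMP receptor ALK1, was 10.92, 10.57 and 10.56 on day 7 against 9.17 to 10.14, higher by 1.15 (SE 0.28, adjusted p = 0.00371). Both day 7 groups lay wholly above baseline, and both calls held in all 9 fits without 1 array but ended with the spike-in set as a block. On day 1 Acvrl1 was higher by 0.92 (adjusted p = 0.0298), with overlap, and was lost in 6 of 9 fits (adjusted p up to 0.168 without RTA-408 replicate 3), and Eng reached adjusted p = 0.11 without the same replicate.

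In vehicle skin on day 7 Eng was 12.33, 12.32 and 13.54, higher than baseline by 1.19 (adjusted p = 0.0218). That Eng call was lost without replicate 3, where the difference fell to 0.78 (adjusted p = 0.275). Acvrl1 was called in vehicle skin on no day. The difference between the arms themselves did not pass for either gene on any day. Eng also followed the macrophage list most closely of the members: over the 46 arrays, after subtracting each group's mean, its correlation with the mean of the macrophage markers was 0.80, and those of Pdgfrb and Esam were 0.78 and 0.75. These genes are read from the same arrays as that list, and their level in macrophages was not measured here. The correlations include irradiated vehicle day 14 replicate 3, with a macrophage mean of 15.44 against 10.88 and 12.08 in its group. They were not computed without it.

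Aplnr, the apelin receptor of sprouting and venous endothelium, was lower than baseline with a call in both arms. In vehicle skin on day 7 it was 5.89, 6.22 and 5.27, against baseline values of 7.04, 6.62, 7.12, 8.13, 7.43 and 6.88, a difference of -1.41 (SE 0.35, adjusted p = 0.00419). With RTA-408 it was 6.14, 6.35 and 5.39 on day 7, a difference of -1.24 (adjusted p = 0.0103), and 6.13, 5.79 and 6.49 on day 14, a difference of -1.06 (adjusted p = 0.0429). None of these arrays overlapped baseline. The low side is near the floor of the assay: Aplnr was above the negative control median on all 6 baseline arrays, but on 1 of 3 vehicle arrays and 2 of 3 RTA-408 arrays of day 7 and 2 of 3 RTA-408 arrays of day 14, so the sizes of these differences are not well measured. The unirradiated arrays of day 7 were also low, at 6.06 and 6.43, a difference of -0.96 from baseline that did not pass (adjusted p = 0.199), and irradiated and unirradiated skin did not differ with a call in Aplnr on any day. Without replicate 3 of the arm the day 7 calls of Aplnr reached adjusted p = 0.0686 with vehicle and 0.124 with RTA-408, and the day 14 call was lost in 7 of 9 fits (up to 0.206 without RTA-408 replicate 2).

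Tek fell in vehicle skin on day 14. It was 9.25, 8.68 and 8.76 against 9.57 to 10.96 at baseline, a difference of -1.19 (SE 0.34, adjusted p = 0.0122) without overlap. Without vehicle replicate 3 the Tek call was lost (adjusted p = 0.0835), and the unirradiated arrays of that day, at 9.12 and 10.29, spanned both groups. The related receptor Tie1 was higher in RTA-408 skin on day 1, at 8.44, 7.97 and 8.16 against 6.50 to 7.71, by 1.05 (SE 0.30, adjusted p = 0.018), and lost its call without RTA-408 replicate 1 (adjusted p = 0.122). The VEGF receptors Kdr and Flt1 were called against baseline in neither arm.

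Of the ligands, only Angpt2 was called. It was higher than baseline in vehicle skin on day -4 by 1.02 (SE 0.30, adjusted p = 0.0244) and on day 1 by 0.93 (adjusted p = 0.0439), at 8.78, 8.92 and 8.55 on the latter day. In RTA-408 skin Angpt2 was 9.20, 8.72 and 8.99 on day 1, 8.70, 8.51 and 9.23 on day 3 and 8.80, 8.60 and 8.74 on day 7, higher by 1.15 (adjusted p = 0.00936), 1.00 (adjusted p = 0.0292) and 0.90 (adjusted p = 0.0378). The baseline values were 7.31, 7.53, 7.19, 8.71, 8.46 and 7.68, so all groups but RTA-408 on day 1 overlapped the 1 highest baseline array. Leaving out 1 array ended each of these Angpt2 calls at least once, with adjusted p up to 0.177 without vehicle replicate 3 of day -4, 0.17 without vehicle replicate 2 of day 1, and 0.0765, 0.21 and 0.129 without RTA-408 replicates 1, 3 and 1 of days 1, 3 and 7. Apln (apelin), Angpt1 and Esm1, a secreted proteoglycan of tip cells, were not called.

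Erg was the transcription factor that moved. In vehicle skin it was 7.36, 7.13 and 8.01 on day -4 and 7.79, 7.62 and 7.37 on day 1, against baseline values of 6.81, 6.22, 6.58, 7.25, 6.77 and 6.93, higher by 0.74 (SE 0.24, adjusted p = 0.0379) and 0.83 (adjusted p = 0.0199). In RTA-408 skin on day 1 it was 8.20, 7.87 and 7.59, higher by 1.12 (adjusted p = 0.00134). The day 1 groups did not overlap baseline, and the RTA-408 call held in all 9 fits without 1 array. The vehicle calls of Erg were lost in 6 and 3 of 9 fits, up to adjusted p = 0.286 without replicate 3 of day -4, where the difference was 0.48, and 0.116 without replicate 1 of day 1. Sox17 and Sox18, which act in arterial and lymphatic specification, were called in no comparison.

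The lymphatic receptor Flt4 was near the negative controls throughout. Its baseline values were 4.70, 4.73, 4.76, 4.81, 5.07 and 4.75, all under the negative control median of their arrays. It was 5.59, 5.26 and 6.13 in vehicle skin on day 7, 5.90, 5.13 and 6.42 on day 14, and 6.32, 5.55 and 6.17 in RTA-408 skin on day 3. The fit gave differences from baseline of 0.86 (adjusted p = 0.0288), 1.01 (adjusted p = 0.00773) and 1.21 (adjusted p = 0.00296), and of 1.03 (adjusted p = 0.00649) in RTA-408 skin on day 7. The sizes are differences of dim signals and do not measure a fold. Of these Flt4 calls only that of RTA-408 on day 3 held in all 9 fits without 1 array. The others reached adjusted p = 0.255 and 0.169 without vehicle replicate 3 of days 7 and 14, and 0.111 without RTA-408 replicate 1 of day 7. All of them ended with the spike-in set as a block.

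Brighter lymphatic genes outside the member set moved further. Of 6 other lymphatic genes, 4, 5, 3, 4 and 4 were higher than baseline in vehicle skin and 4, 5, 4, 4 and 3 in RTA-408 skin on days -4, 1, 3, 7 and 14. Over all features 4.57% to 9.47% were called higher with vehicle and 4.22% to 9.12% with RTA-408 on these days. The median difference of the list in vehicle skin was 1.49, 1.97, 1.39, 1.78 and 2.10, where that of the 34 members was 0.30, 0.44, 0.24, 0.15 and 0.21. On day 1 the hyaluronan receptor Lyve1 was higher by 3.70 with vehicle and 4.46 with RTA-408, and the lymph node chemokine Ccl21 by 3.42 and 3.93. Podoplanin (Pdpn) was higher on day 7 by 3.93 and 4.06. Lyve1 is also made by some tissue macrophages and Pdpn by fibroblasts and keratinocytes, so the list is not limited to lymphatic vessels. Against unirradiated skin on day 14, Lyve1 was higher by 3.44, Pdpn by 3.12 and Ccl21 by 2.98. The mean signal of the list was 7.73 to 8.65 at baseline, and on day 1 9.69 to 10.44 with vehicle and 10.17 to 10.57 with RTA-408. In the unirradiated arrays of day 1 that mean was 8.87 and 9.17, also above every baseline array. On the other days unirradiated skin ranged from 7.58 to 8.76.

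**Figure D4:**
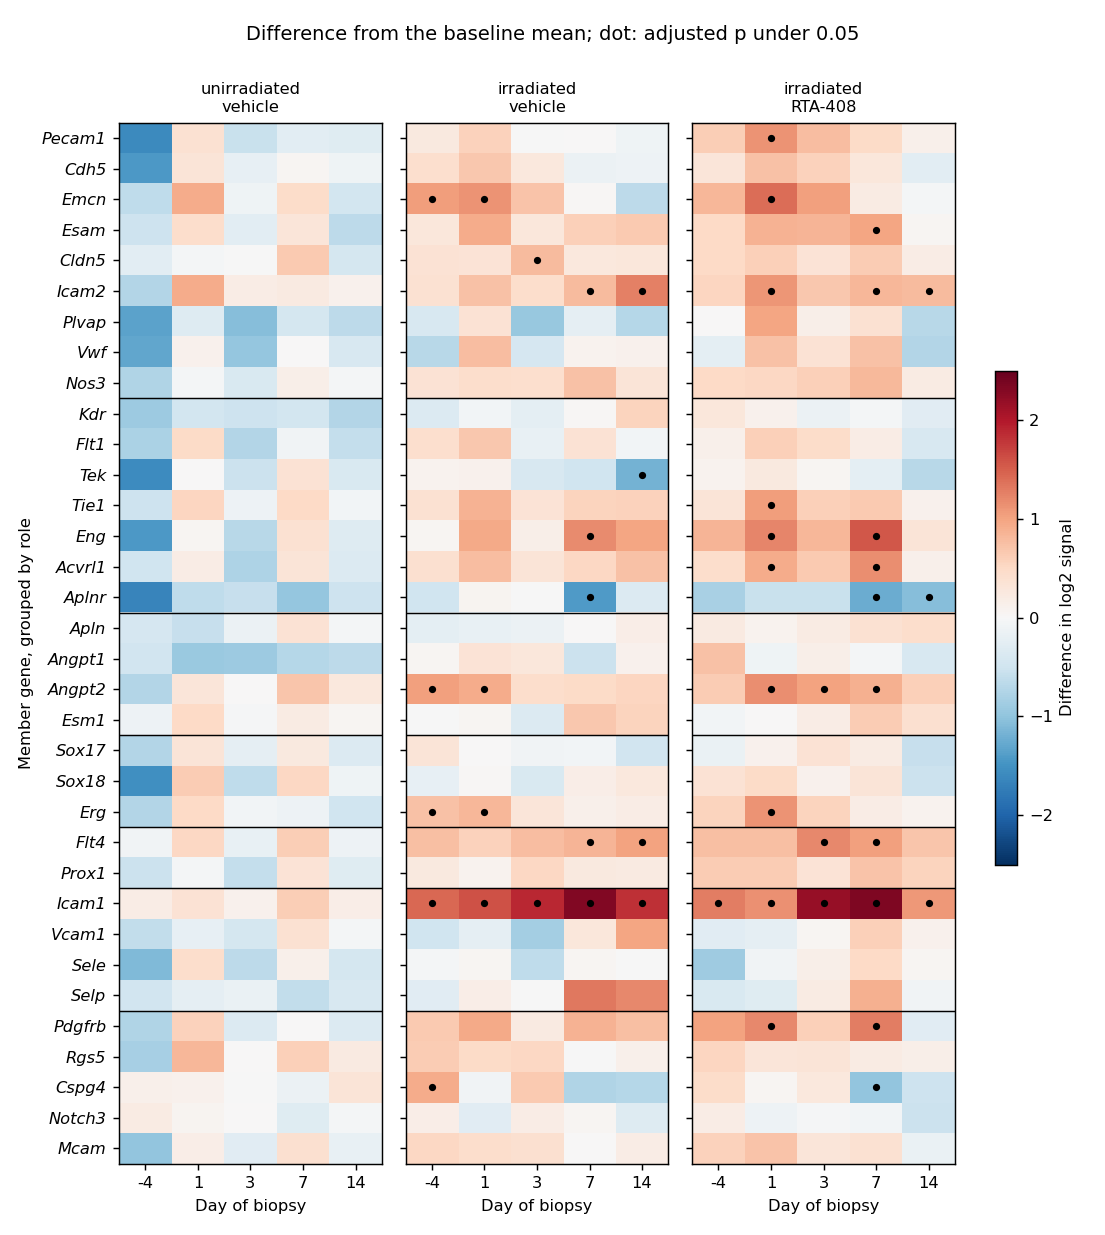
Difference from the baseline mean in log2 signal (colour) for the 34 measured genes (rows, by role) on days -4, 1, 3, 7 and 14 in unirradiated vehicle, irradiated vehicle and irradiated RTA-408 skin, with a dot where the gene was called by limma after adjustment. Icam1 carries a dot on all 5 days in both irradiated arms, and no gene carries one in unirradiated skin.

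Among the pericyte genes, Cspg4, the NG2 proteoglycan, moved in both directions over time. In vehicle skin it was 8.89, 8.67 and 8.86 on day -4, above the baseline range of 7.35 to 8.24 and higher by 0.93 (SE 0.30, adjusted p = 0.0427). With RTA-408 on day 7 it was 6.95, 7.19 and 6.53, wholly below that range, a difference of -0.98 (adjusted p = 0.0215). The vehicle values of day 7 were 7.38, 6.87 and 7.11 and those of day 14 were 8.47, 6.46 and 6.56, neither of which passed. The Cspg4 calls reached adjusted p = 0.157 without vehicle replicate 1 of day -4 and 0.155 without RTA-408 replicate 3 of day 7.

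Pdgfrb, the PDGF receptor of mural cells and also of fibroblasts, was higher in RTA-408 skin on day 1 by 1.20 (SE 0.36, adjusted p = 0.0242), at 11.74, 10.90 and 11.52, and on day 7 by 1.27 (adjusted p = 0.0116), at 11.28, 11.34 and 11.75. The baseline range was 9.71 to 11.40, and both groups overlapped its highest array. Without RTA-408 replicate 1 of day 1 the adjusted p of Pdgfrb was 0.161, and without replicate 3 of day 7 it was 0.0819. Rgs5 and Notch3, both typical of mural cells, and Mcam were not called against baseline in either arm.

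Calls among genes of smooth muscle and mural cells outside the set were counted without a test between days. Of 13, 1, 5, 1, 0 and 0 were higher than baseline in vehicle skin, where 6.46%, 5.08%, 4.57%, 7.92% and 9.47% of all features were, and 0, 6, 0, 2 and 1 in RTA-408 skin, where 4.22%, 6.17%, 5.33%, 9.12% and 5.53% were. Smooth muscle myosin Myh11 was higher on day 1 by 1.76 and 1.88 in the 2 arms. Of 25 further endothelial genes, 4, 6, 2, 3 and 5 were higher with vehicle and 2, 6, 4, 6 and 1 with RTA-408, among them Cd34, a surface sialomucin of capillaries, by 1.40 with vehicle on day 1, and thrombomodulin (Thbd), an endothelial anticoagulant receptor, by 1.90 with vehicle and 2.25 with RTA-408 on day 7. The endothelial protein C receptor Procr was lower than baseline with vehicle on day 3, by a difference of -2.32.

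Genes of Notch and BMP signalling were counted in the same way. Of 13, 3, 3, 3, 5 and 7 were lower than baseline with vehicle, where 4.26%, 4.65%, 3.97%, 6.06% and 5.96% of all features were, and 1, 3, 4, 3 and 7 with RTA-408, where 1.57%, 4.79%, 4.36%, 6.67% and 4.71% were, while 1, 0, 1, 0 and 0 and then 1, 1, 0, 0 and 0 were higher. The inhibitory SMAD gene Smad6 differed from baseline by -1.96 on day 7 and -1.85 on day 14 with vehicle and by -1.71 on day 14 with RTA-408. The Notch ligand Jag1 differed by -1.31 and -1.56 on day 1. Jag1 was also lower in unirradiated skin on day 7, by a called difference of -1.86, and Smad7 and the BMP target Id1 were called lower there too, at -1.67 and -0.95.

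Of 10 further VEGF and PDGF ligands and receptors, 0, 2, 1, 2 and 2 were higher and 0, 1, 1, 0 and 0 lower with vehicle, and 1, 2, 2, 2 and 0 higher and 0, 1, 1, 0 and 1 lower with RTA-408. Over all features 4.57% to 9.47% were called higher and 3.97% to 6.06% lower with vehicle on these days. With RTA-408 the shares were 4.22% to 9.12% higher and 1.57% to 6.67% lower, and no test compared the list with them. Vegfb, a ligand of FLT1, was higher by 1.27 and 1.38 on day 1, and Vegfa, the main endothelial growth factor, by 1.13 with RTA-408 on that day. The co-receptor Nrp2 differed by -1.47 and -1.43 on day 1. None of 4 basement membrane genes was called in any of these comparisons.

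Change across the 5 days within an arm was tested with a moderated F-test over the 3 arrays of each day. In vehicle skin 14.2% of all features were called and 4 members: Emcn (F = 7.34, adjusted p = 0.00456), Aplnr (adjusted p = 0.0442), Vcam1 (adjusted p = 0.019) and Cspg4 (adjusted p = 0.000903). The group mean of Emcn was highest on day 1, that of Cspg4 on day -4, and those of Vcam1 lowest on day 3 and highest on day 14. In RTA-408 skin 6.26% of features were called and 2 members, Icam1 (adjusted p = 0.0321) and Cspg4 (adjusted p = 0.0248). The same rats were biopsied on each day of an irradiated arm. The replicate number was fitted as a block shared by all arms, so it pools different rats and is not a pairing by rat. With that block 6 members were called in vehicle skin, adding Flt1 (adjusted p = 0.0439) and Tek (adjusted p = 0.0293). In RTA-408 skin 5 were called: Emcn (adjusted p = 0.0139), Vwf (adjusted p = 0.04997), Icam1 (adjusted p = 0.027), Pdgfrb (adjusted p = 0.0171) and Cspg4 (adjusted p = 0.0391).

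RTA-408 was compared with vehicle in irradiated skin on each day. By limma, 0 of the 34 genes were called on any of the 5 days, where 0.0474%, 0.0733%, 0.00431%, 0% and 0% of all features were called. At an unadjusted p under 0.05 the members higher and lower numbered 1 and 1 on day -4, 0 and 0 on day 1, 5 and 0 on day 3, 0 and 0 on day 7, and 0 and 2 on day 14. Tests of a drug difference that changed over the days called 0.0129% of features and 0 members. Means over the days of each rat, 3 against 3, called 0% of features. In those rat means Pecam1 had the smallest p, at 9.66 with RTA-408 and 9.18 with vehicle, differing by 0.48 (SE 0.14, adjusted p = 1).

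The members' median difference between the arms was 0.03, 0.15, 0.33, 0.27 and -0.26 on days -4, 1, 3, 7 and 14, while that of all features stayed between -0.02 and 0.02. Of the 34 differences 18, 23, 26, 28 and 10 were positive. The genes share their arrays, so these counts describe the arrays and carry no test.

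On day 3 Plvap was 11.55, 11.68 and 11.85 with RTA-408 and 11.71, 10.27 and 9.77 with vehicle, higher by 1.11 (SE 0.45), which did not pass (adjusted p = 0.9998). Flt1 was 9.82, 9.08 and 9.98 against 9.44, 8.85 and 8.61, higher by 0.66 (SE 0.27, adjusted p = 0.9998). In both genes the arms overlapped through vehicle replicate 1. The remaining day 3 genes at that level were Pecam1, at 10.11, 9.62 and 9.71 against 9.21, 8.83 and 9.04 without overlap (0.78), Vcam1 (0.91) and Sele (0.77).

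On day 14 the smallest adjusted p was 0.264, for Kdr, at 8.73, 8.46 and 8.46 with RTA-408 and 8.69, 9.43 and 10.08 with vehicle, giving -0.85 (SE 0.30). Pdgfrb was 9.95, 9.67 and 10.08 against 9.93, 10.64 and 12.24, differing by -1.03 (SE 0.41, adjusted p = 0.305), and Icam1 differed by -0.74 (SE 0.36, adjusted p = 0.399). The vehicle arrays spread widely and the RTA-408 arrays little. Without vehicle replicate 1 of day 14, 4 genes were called lower with RTA-408: Pdgfrb by -1.54 (adjusted p = 0.0263), Icam1 by -1.37 (adjusted p = 0.0109), Eng by -1.31 (adjusted p = 0.0463) and Kdr by -1.20 (adjusted p = 0.0176). Without vehicle replicate 3, the array with the highest macrophage and cytokine signals, Kdr differed by -0.51 and Pdgfrb by -0.38 (adjusted p = 0.999 for both). The NF-kB list mean of that array was 10.42 against 6.46 and 7.19 in its group, and its part in the difference was not tested.

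**Figure D5:**
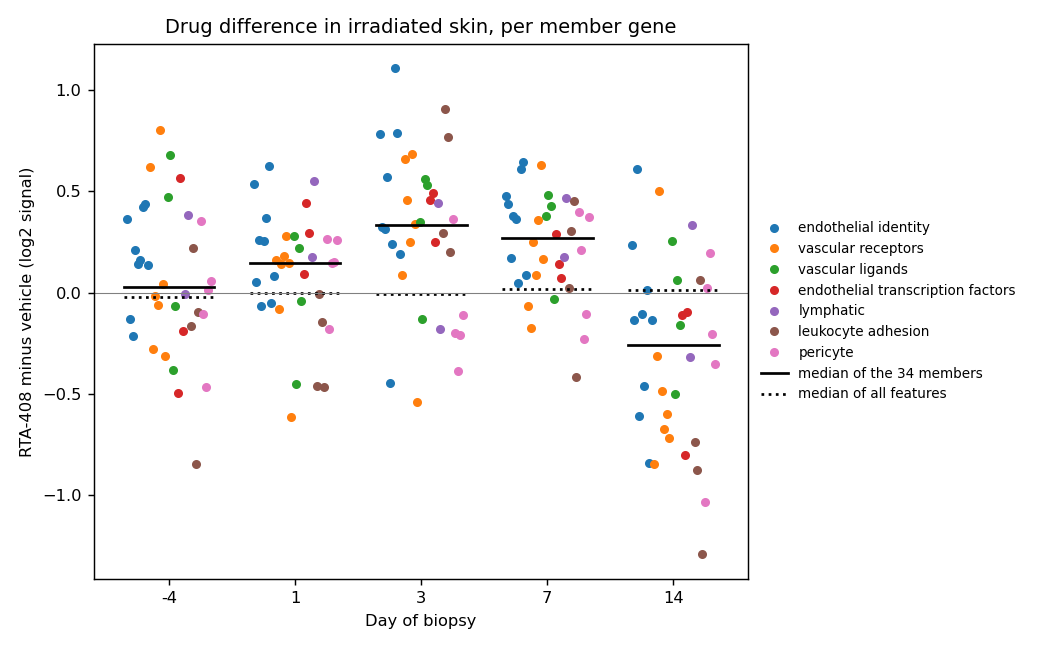
Difference in log2 signal between irradiated RTA-408 and irradiated vehicle skin for each of the 34 genes (points) on days -4, 1, 3, 7 and 14, with solid lines at their median and dotted lines at the median of all features. No gene was called on any day, and the medians run from 0.03 on day -4 to 0.33 on day 3 and -0.26 on day 14.

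The genes of the set varied together from array to array within groups. After subtracting group means, the correlation over the 46 arrays with the mean of the identity genes (leaving out the gene itself) was 0.82 for Cdh5, 0.81 for Mcam, 0.79 for Flt1, 0.75 for Angpt2, 0.74 for Pdgfrb and Acvrl1 and 0.73 for Tek. It was 0.33 for Icam1, 0.23 for Flt4, 0.11 for Esm1, 0.10 for Notch3, -0.02 for Prox1 and -0.13 for Cspg4, and its median over all features was 0.01. The mean of the receptors correlated at 0.89, that of the pericyte genes at 0.78 and that of the other lymphatic genes at 0.78. Lists of other cell types also correlated with the identity genes, at 0.62 for fibroblasts, 0.43 for macrophages, 0.35 for erythrocytes, 0.34 for T and NK cells, 0.15 for skeletal muscle and 0.07 for keratinocytes. With the mean of the NF-kB list the correlation was 0.71 for Icam1, 0.75 for Selp and 0.72 for Eng, where Selp and Eng also had 0.57 and 0.66 with the identity genes. They include irradiated vehicle day 14 replicate 3, whose NF-kB list mean was 10.42 against 6.46 and 7.19 in its group, and were not computed without it. These values describe arrays that share rats, days and processing, and carry no test.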

How the data were processed

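The 46 arrays were taken from the deposited table of log2 signals of 24834 features. The sources used here do not give how the authors normalized these log2 values. Per the labels' protocols, 100 ng of RNA per biopsy (mean RIN 7.15) was amplified and 2.5 ug was hybridized. Groups followed the sample titles; for 1 unirradiated array the description names another day than its title, and the title was used. No arrays held identical values.

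After 1646 control features were left out, limma 3.58.1 (R 4.3.3) was fitted to 23188 features with 1 mean per group (16 groups, 30 residual degrees of freedom), with moderated contrasts, F-tests across days and Benjamini-Hochberg adjustment over all features. Features with 1 annotated symbol numbered 15049; 8139 had none. Named genes are the called members and, where none was called, those with the smallest p; of related lists, up to 3 called genes with the largest differences. The members and lists were chosen with earlier results of these data known. The scripts were tested on simulated data. P-values measure the spread between arrays that come from repeated biopsies of 9 rats. Alternatives were quantile normalization, a filter on dim features, array weights, rat, replicate number or spike-in set as blocks, fits of single comparisons or sets, and leaving out each array. Within an irradiated arm a replicate number is 1 rat on all days. In the unirradiated arm replicate 2 is 1 rat up to day 3 and another from day 7 on. Across the irradiated arms the numbers mark different rats (same-day correlations of deviations -0.38 to 0.25, of which 3 of 15 exceeded 0.1).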

Additional observations from a re-analysis of the deposited data

Results flagged for a closer look

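Among the 34 member genes, each tested for a single array far from the others at baseline, Flt4 had its highest value, 5.0661, in baseline replicate 5, with the nearest array at 4.81 and the lowest at 4.70. The gap was 0.71 of the whole range, above the limit of Dixon's test for 6 samples. Chance flags about 1 in 20 groups, and all 6 values are at negative control level.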

How the results depend on the processing

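The drug comparison called 0 members in the main fit and under every other setting run except leaving out 1 array (0 to 4 calls; unadjusted counts stand in the report). The change of the drug difference over days stayed at 0 (0 to 0 without 1 array), as did the means per rat (0 to 0 without 1 rat). The rat as a random block (estimated correlation 0.0067) and quantile normalization left all calls' counts within 1.5 times of the reported ones, and none reversed its direction. With array weights the calls numbered 26 instead of 16 for irradiated against unirradiated skin, 33 instead of 20 for vehicle against baseline, 41 instead of 27 for RTA-408 against baseline, 6 instead of 0 for unirradiated skin against baseline, 8 instead of 4 for change over days with vehicle and 9 instead of 2 with RTA-408. The last count was 4 without the 5797 dimmest features. With the spike-in set as a block the baseline comparisons gave 5 with vehicle and 14 with RTA-408. Within 1 set the comparison with unirradiated skin gave 9, and with all unirradiated days as control, chosen after seeing the data, 31. Fits of the compared groups alone gave 15 calls against unirradiated skin and 16 with vehicle and 22 with RTA-408 against baseline, but on day 14 ended all calls against unirradiated skin and, with vehicle against baseline, those of Icam1 (adjusted p = 0.0599), Tek (0.058) and Flt4 (0.0578). The causes were not tested.

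The replicate block gave 36 calls for vehicle, 40 for RTA-408 and 2 for unirradiated skin against baseline, 5 for change over days with RTA-408 and 6 with vehicle, and left the comparison with unirradiated skin at 16. Between baseline and an arm a shared number does not mark 1 rat, except for replicates 1 and 2 of RTA-408 skin. Leaving out 1 array gave 6 to 20 calls against unirradiated skin, 12 to 28 for vehicle, 19 to 33 for RTA-408 and 0 to 3 for unirradiated skin against baseline, and 2 to 7 and 0 to 4 for change over days with vehicle and with RTA-408. Without baseline replicates 1, 2 and 3 the vehicle count was 12, 13 and 13. Signals near the negative controls limit Flt4, Prox1, Selp, Nos3, Esm1, Apln and, at its low values, Aplnr.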
